A study of Mus musculus with 4 samples.

Results

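Colonic epithelial cells of DSS-treated mice were examined for the mRNA of the MAL proteolipids and of genes that build and supply the brush border. The group held 10 genes, namely *Mal*, *Mal2*, *Myo5b*, *Rab11a*, *Vil1*, *Ezr*, *Myo1a*, *Cdhr2*, *Cdhr5* and *Espn*, and each was found by its symbol among the 16015 genes listed in the deposited table. All 10 also belonged to the 13983 genes with a mean normalised count of at least 10, a normalised count being a gene's reads after division by its library's size factor. The genes were chosen by the difference between the groups in these same libraries, above all that of *Mal*, and by their shared place at the apical membrane. Their differences are therefore given as a description with standard errors and no p-value, and how many of them were called is stated only beside the share of all genes called.

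Bulk RNA sequencing was available for 4 mice on a C57BL/6 background, 2 to 4 months old, which drank 3% dextran sulfate sodium (DSS), a polysaccharide that injures the colonic epithelium, for 5 days and then water for 2 days. The 2 mice labelled WT were, by the methods, *Bmal1* fl/fl mice, in which the clock gene *Bmal1* carries loxP sites but no Cre is present. The 2 mice labelled *Bmal1* cKO were *Villin-CreERT2; Bmal1* fl/fl mice, in which the villin promoter drives a tamoxifen-inducible Cre in the intestinal epithelium. Tamoxifen was injected for 5 days to activate the Cre, and the methods do not say separately whether the controls were injected. The hour of day at which these cells were taken is not given in the sources used here. The villin gene itself, *Vil1*, is one of the 10 genes described.

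The brush border is the dense carpet of microvilli on the apical face of absorptive enterocytes. Each microvillus has a core of parallel actin filaments held together by bundling proteins such as villin and espin, and is tied to the overlying membrane by ezrin and by the motor myosin-1a, while the protocadherins CDHR2 and CDHR5 link neighbouring microvilli at their tips. New membrane reaches the apical face through recycling endosomes that carry RAB11A and the motor myosin-5b, and MAL and MAL2 are small membrane-spanning proteins of the MARVEL family that work in raft-based apical transport and in transcytosis, respectively.

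The libraries held between 10312791 and 14156639 reads on the listed genes, and each deposited value (100%) was a whole number of times what 1 read was worth. The targeted gene *Bmal1*, listed as *Arntl*, had 358 and 342 normalised counts in the WT mice against 341 and 289 in the *Bmal1* cKO mice. The log2 fold change of *Arntl* was -0.16 with a standard error of 0.14 (adjusted p = 0.389, limma), and it lay between -0.43 and -0.04 over 16 other ways of processing, none of which called it. All directions below are therefore taken from the libraries' labels, *Bmal1* cKO against WT. By immunoblot and immunohistochemistry, the authors report that BMAL1 was abolished in the intestinal epithelium of their knockout mice. Those are measures of protein and not of the RNA counted here. The log2 fold change also followed GC content, with a Spearman rank correlation of -0.61 over 13975 genes, and the log2 fold changes of the 10 genes are accordingly also given after each library was corrected for GC content and exon length (called the correction below). In bulk RNA such as this, fewer cells of a type and less RNA per cell cannot be told apart.

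Among the MAL proteolipids, *Mal* (chr2:127633226-127656695, minus strand, GRCm38) was close to the limit of detection in the WT mice and clearly present in the *Bmal1* cKO mice. It had 9.29 and 8.47 normalised counts in the WT mice against 199.5 and 346 in the *Bmal1* cKO mice. These values came from 11 and 10 reads against 194 and 256 reads. All were above 3 reads, the number set as the floor of detection, which was not used to leave out genes. Both *Bmal1* cKO mice lay far above both WT mice, although on the log2 scale they differed from each other more than for any other of the 10 genes. The means were 8.88 ± 0.58 (SD, n = 2) and 273 ± 104 (SD, n = 2), a ratio of 30.7. On the log2(normalised count + 1) scale the difference was 4.74 (standard error 0.39), and 4.60 (standard error 0.38) once GC content and length were corrected for.

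*Mal* is set here beside genes of like composition as a description only, since it was chosen by this same difference. Its longest transcript has a GC content of 48.9%, and the 1398 genes between 47.6% and 49.5% had a median log2 fold change of 0.17. Within that class *Mal* lay at the 99.9th percentile. The bases upstream of its start are shown because *Mal* had the largest difference of the 10 genes. They run from chr2:127656696-127656945 on the minus strand of GRCm38.p6 (RefSeq) and are written 5′ to 3′, ending at the base before the start site. None is in capitals, since none of the motifs searched was found.
Mal: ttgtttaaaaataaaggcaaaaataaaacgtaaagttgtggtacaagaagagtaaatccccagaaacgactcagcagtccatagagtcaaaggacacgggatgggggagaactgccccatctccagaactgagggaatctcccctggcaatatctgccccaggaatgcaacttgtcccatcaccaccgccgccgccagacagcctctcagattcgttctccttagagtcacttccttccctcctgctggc

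*Mal2* (chr15:54571192-54602847, plus strand) was already abundant in the WT mice and was about 4.11 times as abundant in the *Bmal1* cKO mice. It had 3405 and 3181 normalised counts in the WT mice against 13755 and 13283 in the *Bmal1* cKO mice. The mice of each group lay close together and the groups far apart, with means of 3293 ± 158 (SD, n = 2) and 13519 ± 334 (SD, n = 2). This was a log2 fold change of 2.04 (standard error 0.10). Genes in its GC class, from 41.2% to 43.7%, were themselves mostly higher, with a median of 0.79, and *Mal2* lay at the 97.4th percentile of them. After the correction its log2 fold change was 1.33 (standard error 0.10). Over the 16 alternatives the value lay between 4.27 and 5.14 for *Mal* and between 1.33 and 2.09 for *Mal2*.

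**Figure D1:**
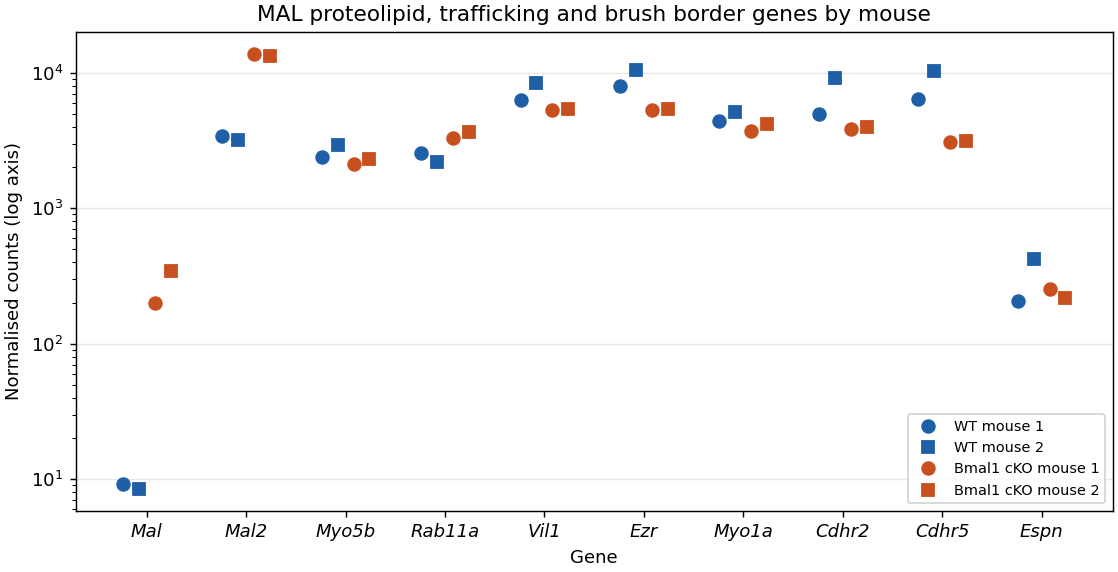
Normalised counts (log axis) of the 10 genes in each of the 4 mice, blue for WT and orange for *Bmal1* cKO, with circles for mouse 1 and squares for mouse 2 of each group. *Mal* moves from 9.29 and 8.47 to 199.5 and 346 and *Mal2* from 3405 and 3181 to 13755 and 13283, while only *Espn* has overlapping groups.

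The apical recycling pair differed from each other. *Rab11a* (chr9:64715299-64737758, minus strand), the small GTPase of recycling endosomes, had 2539.5 and 2207 normalised counts in the WT mice against 3319 and 3652 in the *Bmal1* cKO mice. *Myo5b* (chr18:74440936-74771493, plus strand), the motor that carries these endosomes along actin, had 2374 and 2939 in the WT mice against 2134 and 2318 in the *Bmal1* cKO mice. So *Rab11a* was higher and *Myo5b* slightly lower in both *Bmal1* cKO mice than in both WT mice. As log2 fold changes these were 0.56 for *Rab11a* (standard error 0.11) and -0.25 for *Myo5b* (standard error 0.13). *Myo5b* was at -0.40 without WT mouse 1 and at -0.09 without WT mouse 2.

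The direction of *Rab11a* turned with the correction. At 39.5% GC it falls in the class with the lowest GC content, whose median log2 fold change was 1.13, so that *Rab11a* lay at the 26th percentile of its class while it lay at the 70.7th of all tested genes. After the correction its log2 fold change was -0.51 (standard error 0.10), with the sign turned. *Myo5b*, at 51.9% GC, lay at the 53.4th percentile of its class, and its corrected log2 fold change was -0.05 (standard error 0.13).

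Of the actin bundlers of the microvillus core among the 10 genes, *Vil1* was lower and *Espn* overlapped in the uncorrected values. *Vil1* (chr1:74409376-74435559, plus strand), which encodes villin, had 6324 and 8459 normalised counts in the WT mice against 5309.6 and 5441 in the *Bmal1* cKO mice. Both *Bmal1* cKO mice were below both WT mice, but the WT mice were farther from each other than the lower of them was from the *Bmal1* cKO mice. For *Vil1* the log2 fold change was -0.44 (standard error 0.16), which became -0.05 (standard error 0.15) after the correction. Left-out mice moved the uncorrected value of *Vil1* to -0.65 (without WT mouse 1) and -0.23 (without WT mouse 2). *Espn* (chr4:152120331-152152371, minus strand), which encodes espin, had 207 and 419 normalised counts in the WT mice against 253 and 219 in the *Bmal1* cKO mice. These groups overlapped, WT mouse 1 being the lowest of all and WT mouse 2 the highest. The log2 fold change of *Espn* was -0.32 (standard error 0.34), and without WT mouse 2 it was 0.18. *Espn* also had the highest GC content of the 10 genes, 62.1%, in a class with a median of -1.35, and its corrected log2 fold change was 1.28 (standard error 0.33).

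Of the links between membrane and actin, *Ezr* differed more than *Myo1a* in the uncorrected values. *Ezr* (chr17:6738041-6782784, minus strand) encodes ezrin and had 7961 and 10439 normalised counts in the WT mice against 5342 and 5386 in the *Bmal1* cKO mice. *Myo1a* (chr10:127705170-127720940, plus strand), the lateral tether of the core, had 4388 and 5158 in the WT mice against 3729 and 4171 in the *Bmal1* cKO mice. For both genes the *Bmal1* cKO mice were below the WT mice without overlap, by a wide gap for *Ezr* and a narrow one for *Myo1a*. The log2 fold change of *Ezr* was -0.77 (standard error 0.15) and -0.42 (standard error 0.15) after the correction. For *Myo1a* it was -0.27 (standard error 0.12) and 0.13 (standard error 0.12), so that the sign of *Myo1a* turned. The uncorrected value of *Myo1a* was -0.15 without WT mouse 2.

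The tip-link protocadherins were lower in the *Bmal1* cKO mice in the uncorrected values, *Cdhr5* the most of the 10 genes and *Cdhr2* by about as much as *Ezr*. *Cdhr5* (chr7:141269083-141276786, minus strand) had 6441 and 10247.5 normalised counts in the WT mice against 3096 and 3151 in the *Bmal1* cKO mice. *Cdhr2*, its binding partner (chr13:54701461-54736662, plus strand), had 4986 and 9123 in the WT mice against 3813 and 3974 in the *Bmal1* cKO mice. For both genes the *Bmal1* cKO mice were nearly alike and the WT mice far apart, with WT mouse 2 the higher. The log2 fold change was -1.38 (standard error 0.22) for *Cdhr5* and -0.79 (standard error 0.28) for *Cdhr2*. After the correction these were -0.59 (standard error 0.22) and -0.27 (standard error 0.28). Without WT mouse 1 the uncorrected value of *Cdhr2* was -1.23, and without WT mouse 2 it was -0.36.

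*Cdhr5* is shown with its upstream bases because it holds a match to the letters TTTATG of the CDX motif, and the CDX factors are among the enterocyte transcription factors given below. The bases run from chr7:141276787-141277036 on the minus strand of GRCm38.p6 (RefSeq), written 5′ to 3′ and ending at the base before the start site. The capitals mark the match, which lies on the other strand and starts 39 bases before the start site.
Cdhr5: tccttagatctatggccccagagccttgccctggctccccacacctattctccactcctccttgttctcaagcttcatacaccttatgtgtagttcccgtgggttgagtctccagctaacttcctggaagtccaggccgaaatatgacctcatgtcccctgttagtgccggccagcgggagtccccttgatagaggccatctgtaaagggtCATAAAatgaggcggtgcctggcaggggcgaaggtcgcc

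Promoter windows, from 250 bases before to 50 after the start, were present in the RefSeq promoter set used here for 8 of the 10 genes, 10 windows in all. That set held no window for *Mal2* and *Myo5b*. The motifs were searched on both strands, and none of them contains another. The E-box CACGTG, the letters that BMAL1 is known to bind with its partner CLOCK, was in 0 of the 10 windows and in 7.15% of the 32851 windows of all genes. The HNF4 motif CAAAGTCCA was also in 0 of them, against 0.475% of all windows. TTTATG was in *Cdhr5* and in 1 of the 3 *Espn* windows, and in 11.9% of all windows. The GC box GGGCGG was in windows of *Vil1*, *Espn*, *Rab11a* and *Ezr*, and in 35.7% of all windows. No match or lack of a match in these windows says where a factor was bound.

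The same values per kilobase of annotated exon allow the 10 genes to be set side by side. In the WT mice the order of mean level, in normalised counts per kilobase, began with *Cdhr5* at 3046 ± 983 (SD, n = 2), *Ezr* at 2796 ± 533, *Vil1* at 2082 ± 425 and *Cdhr2* at 1708 ± 708. It went on with *Myo1a* at 1285 ± 147, *Mal2* at 1116 ± 53.7, *Rab11a* at 793 ± 78.7 and *Myo5b* at 272 ± 40.9, and ended with *Espn* at 37.9 ± 18.2 and *Mal* at 3.20 ± 0.21. Neighbours in this order whose mice overlapped were *Cdhr5* and *Ezr*, *Vil1* and *Cdhr2*, and *Cdhr2* and *Myo1a*.

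In the *Bmal1* cKO mice *Mal2* came first, at 4583 ± 113 normalised counts per kilobase (SD, n = 2), ahead of *Ezr* at 1630 ± 9.66 and *Vil1* at 1514 ± 26.1. *Rab11a*, at 1165 ± 78.7, overlapped *Cdhr5*, at 1140 ± 14.1, and *Myo1a*, at 1064 ± 84.3, while *Cdhr2* was at 943 ± 27.6 and *Myo5b* at 228 ± 13.3. *Mal* had passed *Espn*, with 98.2 ± 37.3 against 28.5 ± 2.91. This gap rests on the annotated exon lengths, 2778 bases for *Mal* and 8272 for *Espn*. Before division by length the *Bmal1* cKO mice overlapped, with 199.5 and 346 normalised counts for *Mal* against 253 and 219 for *Espn*. *Mal2* made up 8.49% of the summed level per length of the 10 genes in the WT mice against 37.0% in the *Bmal1* cKO mice, and *Cdhr5* 23.2% and 9.20%. Among all tested genes, the level of *Mal* per length went from the 2.9th to the 59.8th percentile.

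**Figure D2:**
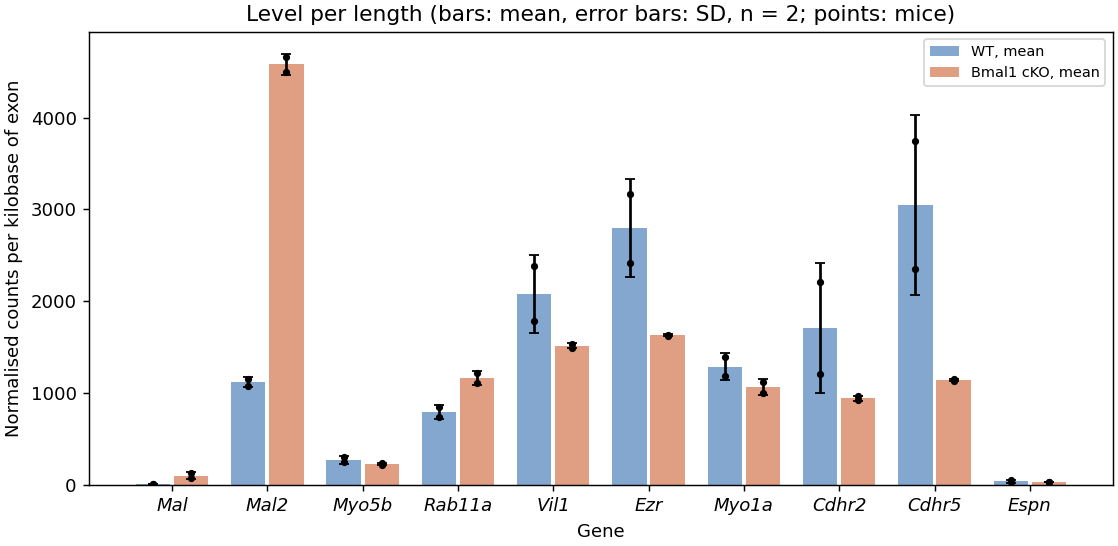
Normalised counts per kilobase of annotated exon for the 10 genes, with bars for the mean of 2 mice, error bars for the SD and points for single mice. *Mal2* is sixth of the 10 in WT mice, at 1116, and first in *Bmal1* cKO mice, at 4583.

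Ratios within a library describe the balance between members without the size factor. Per length, *Mal2* exceeded *Mal* 345 and 354 times in the WT mice against 64.9 and 36.2 times in the *Bmal1* cKO mice, although *Mal2* was itself higher there. *Mal2* over *Vil1* was 0.648 and 0.453 in the WT mice against 3.12 and 2.94 in the *Bmal1* cKO mice. The ratio of *Cdhr2* to *Cdhr5*, whose products bind each other, was 0.514 and 0.591 in the WT mice against 0.817 and 0.837 in the *Bmal1* cKO mice. Each of these ratios had no overlap between the groups, and the genes were chosen on this contrast. The shares and ratios rest on uncorrected values. From the fitted log2 fold changes, *Mal2* over *Vil1* was 5.59 times as high in the *Bmal1* cKO mice before the correction and 2.61 times after it.

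Of the 10 genes, 2 were called lower (*Ezr* and *Cdhr5*) and 3 higher (*Mal*, *Mal2* and *Rab11a*) at an adjusted p under 0.05, where 27.7% of all tested genes were called lower and 29.0% higher. With scaling to the library totals 4910 of 14019 tested genes were lower and 3091 higher, instead of 3871 and 4059 of 13983. With GC content and length corrected for, 1 gene was called lower (*Rab11a*) and 3 higher (*Mal*, *Mal2* and *Espn*), against 18.0% and 17.8% of all genes. Both mice of one group lay beyond both of the other, with the *Bmal1* cKO mice lower, for 6 genes, and with them higher for 3, where the shares of all tested genes were 41.7% and 40.3%. The rule for the members rests on this contrast, so nothing is read from these counts. The median log2 fold change of the 10 genes was -0.30, and -0.05 after the correction, beside -0.04 and -0.02 for all tested genes.

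The 6 brush border genes *Vil1*, *Espn*, *Ezr*, *Myo1a*, *Cdhr2* and *Cdhr5* all had a log2 fold change below 0 in the uncorrected values, and all have a GC content in a range where the genes as a whole were lower. Relative to its own GC class, *Vil1* lay at the 43.7th percentile, *Ezr* at the 32.4th, *Myo1a* at the 52.1st, *Cdhr2* at the 40.3rd, *Cdhr5* at the 27.6th and *Espn* at the 90.3rd. What produced the trend with GC content was not tested.

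**Figure D3:**
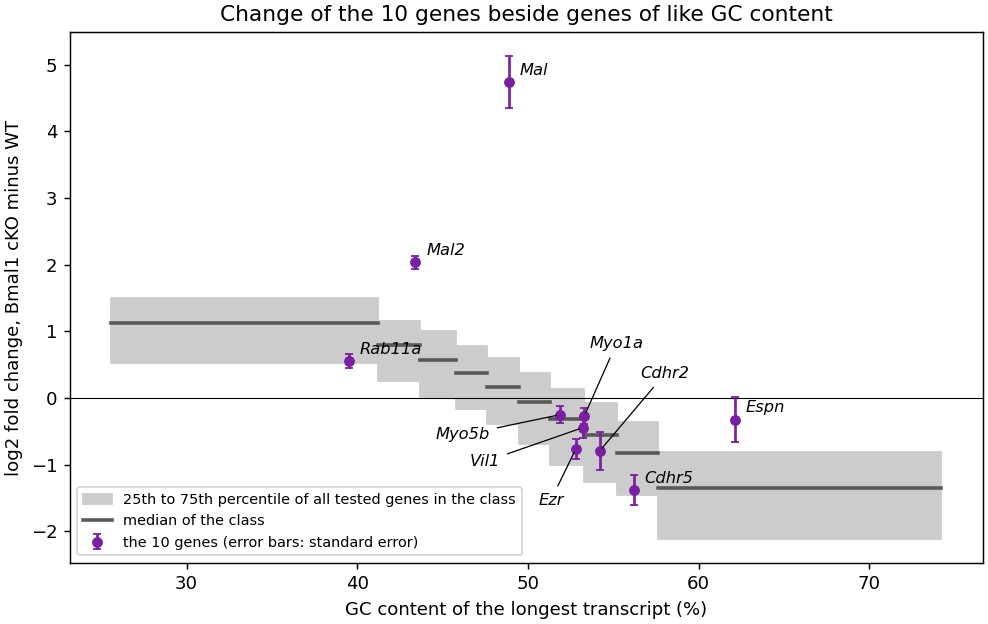
Log2 fold change (*Bmal1* cKO minus WT) of the 10 genes against the GC content of the longest transcript in percent, with standard errors, over 10 classes of all tested genes drawn as a median line and a band from the 25th to the 75th percentile. *Mal*, *Mal2* and *Espn* lie above the band of their class and the other 7 genes within it.

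The mice of the WT group differed from each other in the brush border genes. On the log2 scale WT mouse 2 was above WT mouse 1 by 1.01 for *Espn*, 0.87 for *Cdhr2*, 0.67 for *Cdhr5*, 0.42 for *Vil1*, 0.39 for *Ezr* and 0.23 for *Myo1a*. These differences lay between the 79.8th and the 97.3rd percentile of all tested genes, whose median difference was -0.01. *Myo5b* was higher in WT mouse 2 by 0.31, and *Mal2*, *Mal* and *Rab11a* were lower by -0.10, -0.12 and -0.20. In the *Bmal1* cKO mice the same genes differed by between -0.21 and 0.16, except *Mal*, which was higher in mouse 2 by 0.79. The summed normalised counts of the 6 brush border genes were 30307 and 43846 in the WT mice against 21542 and 22342 in the *Bmal1* cKO mice.

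**Figure D4:**
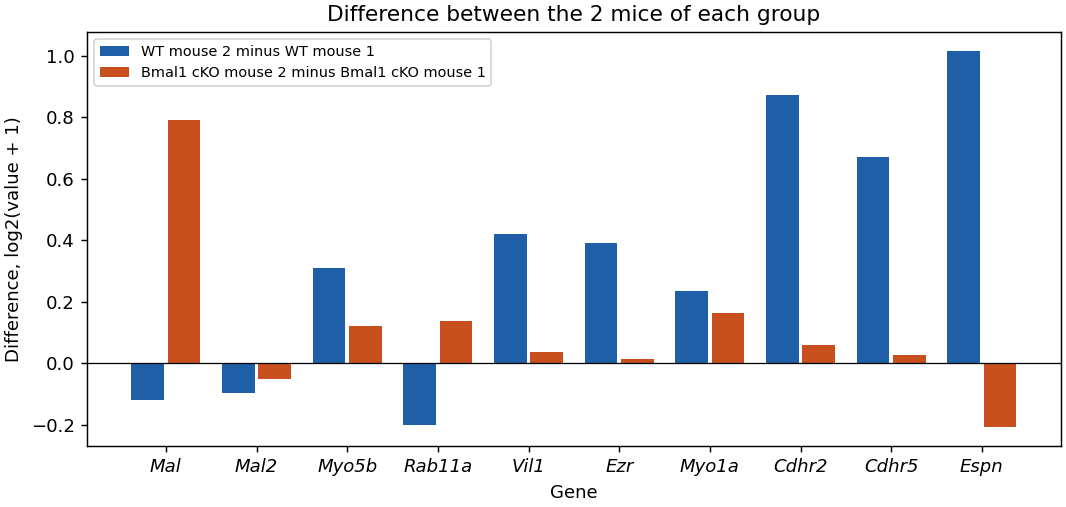
Difference between the 2 mice of each group (mouse 2 minus mouse 1) on the log2(normalised count + 1) scale for the 10 genes, blue for WT and orange for *Bmal1* cKO. The 6 brush border genes were higher in WT mouse 2, by up to 1.01 for *Espn*, and *Mal* differed by 0.79 between the *Bmal1* cKO mice.

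Markers of other cells moved with the groups. The epithelial markers summed to between 115800 and 131800 normalised counts in the WT mice and to between 115000 and 120600 in the *Bmal1* cKO mice, with 2 of 8 lower and 1 higher. All 10 stromal and muscle markers were lower, summing to between 3156 and 11220 against between 333.9 and 356.9, and 10 of 12 markers of other leukocytes were lower, from between 16500 and 26540 to between 3942 and 4147. *Mal* is also known from T cells, myelin-forming glia and squamous epithelium. T cell markers summed to 687 and 201 in the WT mice against 45.3 and 104 in the *Bmal1* cKO mice, where 5 of 10 tested were lower, none was higher and *Cd2* was at 0. Of the glial list, 4 of 8 genes were analysed, and 1 was higher (*Erbb3*) and 1 lower (*Gfap*). *Erbb3* made up most of the sum of between 3286 and 3827 in the WT mice against between 5489 and 5509 in the *Bmal1* cKO mice. The 5 squamous markers listed summed to between 207 and 220 in the WT mice and to between 56.8 and 110 in the *Bmal1* cKO mice, with 1 of 3 tested lower (*Dsg3*) and none higher. *Dsg3* made up most of this sum, with 156 and 185 normalised counts in the WT mice against 74.1 and 25.7 in the *Bmal1* cKO mice. The part of any of these cell types in the values of the 10 genes was not tested.

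The genes whose profile over the 4 libraries was nearest to that of *Mal*, by Euclidean distance of the centred log2 values over the 11233 genes whose mean was 50 or more, were *Gsdmc3* (distance 0.965), *Fut9* (1.17), *Apol10a* (1.39), *Cxcl9* (1.41) and *Gsdmc2* (1.58). *Cxcl9*, a chemokine of the interferon response, had 10.98 and 5.93 normalised counts in the WT mice against 204 and 114 in the *Bmal1* cKO mice. *Fut9*, a fucosyltransferase, had 44.8 and 62.7 and then 758 and 756. *Gsdmc2* and *Gsdmc3* are near-identical copies, and reads may have been split between them. Closer likenesses were found for *Mal2*, whose nearest genes *Arhgap5*, *Cept1*, *G2e3*, *Ccnc* and *Yod1* lay at distances of between 0.0347 and 0.0779. *Arhgap5* had 2197 and 2088 normalised counts in the WT mice against 9132 and 8574 in the *Bmal1* cKO mice. Of these 5, *Cept1* had the highest GC content, 39.5%, below the 43.4% of *Mal2*, and after the correction *Arhgap5* was at 0.51 and *Cept1* at 0.92 where *Mal2* was at 1.33.

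The other genes of the MARVEL family, to which occludin, the CMTM proteins and the synaptophysin-like vesicle proteins belong, changed in both directions. Of 18 tested, 6 fell and 8 rose, with a median log2 fold change of 0.23, and after the correction 3 fell and 8 rose, with a median of 0.07. For this and the next lists, the shares over all tested genes were 27.7% lower and 29.0% higher with a median of -0.04, and after the correction 18.0% and 17.8% with a median of -0.02. *Ocln*, a tight junction protein, had 1070.4 and 1349 normalised counts in the WT mice against 2913 and 3093 in the *Bmal1* cKO mice (log2 fold change 1.32, adjusted p = 0.00109, limma), and was at 0.47 after the correction. *Sypl* rose by 1.33 (adjusted p = 0.00148, limma), but was at 0.17 after the correction. *Cmtm3* went from 160 and 32.2 to 6.17 and 1.35 normalised counts, a log2 fold change of -4.15 (adjusted p = 0.0169, limma), and -3.77 after the correction. Its *Bmal1* cKO values came from only 6 reads and 1 read, and the standard error of the uncorrected value was 0.99. *Syngr1*, with 50 reads in the WT mice against 2 in the *Bmal1* cKO mice, had a ratio of 0.0552 with a 95% exact interval of 0.0065 to 0.210 that covers counting error only. Its log2 fold change was -3.33 (adjusted p = 0.0177, limma), and the correction left -2.48 (adjusted p = 0.0627, limma). *Mall*, the MAL-like gene, had 1222 and 1693 normalised counts in the WT mice against 1206 and 1069 in the *Bmal1* cKO mice (log2 fold change -0.34, adjusted p = 0.147, limma). *Pllp*, plasmolipin, had 29.6 and 27.1 and then 47.3 and 86.5 (log2 fold change 1.15, adjusted p = 0.0622, limma), and was at 1.62 (adjusted p = 0.0337, limma) after the correction. *Mall* and *Pllp* were named after their values were seen.

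Of the genes of apical recycling and fusion 5 of 20 were lower and 4 higher, with a median of 0.00, and after the correction 5 were lower and 4 higher with a median of 0.01. Only 2 genes were called lower and 2 higher in both fits, and *Unc45a*, named after its values were seen, was called lower at -0.49 before the correction and higher at 0.60 after it. The SNAREs *Vamp7* and *Snap23* rose, *Vamp7* from 429 and 386 to 1903 and 1936 normalised counts (log2 fold change 2.23, adjusted p = 0.000533, limma) and *Snap23* by 1.06 (adjusted p = 0.000844, limma). No GC content was known for *Vamp7*, and *Snap23* was at 0.06 after the correction. *Vamp8*, another endosomal SNARE, fell from 701 and 768 to 321 and 292, a log2 fold change of -1.26 (adjusted p = 0.000964, limma), and -1.06 after the correction. *Rab11fip5*, a RAB11 effector, was at -2.78 (adjusted p = 0.00149, limma) and at -1.70 after it.

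In the microvillus core list 7 of 13 tested genes were lower and 3 higher, with a median of -0.64. After the correction 3 were lower and 4 higher, with a median of -0.18. *Pls1*, the plastin that bundles the core beside villin and espin, rose from 4233 and 4714 to 11021 and 10167 normalised counts (log2 fold change 1.24, adjusted p = 0.000785, limma), and was at 0.46 after the correction. *Pls3*, its relative, rose by 0.68 (adjusted p = 0.0303, limma) and was at 0.00 after the correction. *Vill*, villin-like, fell from 380 and 534 to 93.6 and 47.3 (log2 fold change -2.74, adjusted p = 0.00249, limma), with -1.96 after the correction. *Cobl*, an actin nucleator at the base of microvilli, was at -1.36 (adjusted p = 0.0202, limma) and at -1.30 after it.

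Among the membrane linkers and motors 6 of 11 fell and 4 rose, with a median of -0.53, and after the correction 3 were lower and 1, *Myo6*, was higher, with a median of -0.035. *Msn*, moesin, which is abundant in leukocytes and stroma, fell from 1511 and 1061 to 135 and 134 normalised counts (log2 fold change -3.23, adjusted p = 0.000533, limma), and was at -3.54 after the correction. *Rdx*, radixin, went from 526 and 238 to 1191 and 658 (log2 fold change 1.32), at the edge of the threshold (adjusted p = 0.04999, limma). Its call was lost with edgeR (adjusted p = 0.0725) and with the correction, which left 0.67 (adjusted p = 0.281, limma). *Slc9a3r2*, a scaffold that binds ezrin, was at -3.35 (adjusted p = 0.00338, limma) and at -1.77 after the correction, and the motor *Myo6* was at 1.26 (adjusted p = 0.000644, limma) and at 0.59 after it.

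Of the 4 partners of CDHR2 and CDHR5 in the intermicrovillar adhesion complex 1 was higher, with a median of 0.10. None was lower by limma, edgeR or DESeq2, and 0 were lower at an unadjusted p under 0.05. *Anks4b* rose from 708 and 980.0 to 1261 and 1289.5 normalised counts (log2 fold change 0.61, adjusted p = 0.0263, limma), and was at 0.04 after the correction. *Ush1c* had a log2 fold change of -0.39, *Myo7b* one of -0.20 and *Calml4* one of 0.39, with adjusted p = 0.134, 0.189 and 0.224 (limma). After the correction 2 were higher, with a list median of 0.45, namely *Calml4* at 0.87 (adjusted p = 0.0477, limma) and *Myo7b* at 0.45 (adjusted p = 0.0305, limma), and *Ush1c* was at 0.44 (adjusted p = 0.141, limma), so that the signs of *Myo7b* and *Ush1c* turned. *Ush1c*, *Myo7b* and *Calml4* were named after their values were seen.

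Apical enzymes and glycoproteins, the cargo of the brush border, had 4 of 13 tested genes lower and 2 higher, with a median of -0.33. *Car4*, the carbonic anhydrase of surface colonocytes, fell from 5432 and 10492 to 1585 and 2328 normalised counts (log2 fold change -1.97, adjusted p = 0.00595, limma), with -1.81 after the correction. *Anpep*, aminopeptidase N, fell from 135 and 130.4 to 15.4 and 14.9 (log2 fold change -3.05, adjusted p = 0.00115, limma), with -2.63 after the correction. The peptidases *Dpp4* and *Mep1b* rose by 1.21 (adjusted p = 0.00139, limma) and 1.12 (adjusted p = 0.0121, limma). The correction left them at 0.34 (adjusted p = 0.0925, limma) and 0.69 (adjusted p = 0.0696, limma), and 3 of the list were then lower and 0 higher, with a median of -0.47, and 8 were lower and 2 higher at an unadjusted p under 0.05.

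In the raft, annexin and galectin list 6 of 10 fell and 2 rose, with a median of -0.73, but after the correction 2 were lower and 1 higher, with a median of -0.03. *Anxa2*, an annexin of apical rafts, fell from 17949 and 20000.3 to 7198 and 7592 normalised counts (log2 fold change -1.36, adjusted p = 0.00075, limma), while its partner *S100a10* rose from 4231 and 4245 to 6509 and 6716.5 (log2 fold change 0.64, adjusted p = 0.00287, limma). These partners moved apart also after the correction, at -1.16 and 0.91. *Cav1*, a caveolin that stroma and endothelium express strongly, was at -3.64 (adjusted p = 0.0065, limma) and at -4.43 after the correction. *Cav2*, its relative, was at 1.496 (adjusted p = 0.00153, limma), and the correction left 0.26 (adjusted p = 0.26, limma).

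Of the enterocyte transcription factors 5 of 10 fell and 3 rose, with a median of -0.40, and after the correction 0 fell, also at an unadjusted p under 0.05, and 3 rose, with a median of 0.34. *Cdx1*, named after its values were seen, was called lower at -1.08 before the correction and higher at 0.60 after it. The same turn from called lower to called higher was found for *Syngr2* of the MARVEL list and *Baiap2l2* and *Misp* of the core list. *Hnf4g*, a nuclear receptor of enterocytes, rose from 192 and 202 to 1027 and 1012 normalised counts (log2 fold change 2.37, adjusted p = 0.000533, limma), and was at 1.47 after the correction. *Smad4* rose by 0.80 (adjusted p = 0.00531, limma), and was at 0.71 after it. *Cdx2*, the intestinal homeobox factor, fell from 1440.4 and 2135 to 575 and 693 (log2 fold change -1.47, adjusted p = 0.00301, limma), and the correction left -0.50 (adjusted p = 0.118, limma). *Srf*, which drives actin genes, was at -1.65 (adjusted p = 0.00272, limma) and at 0.39 after it, with the sign turned.

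**Figure D5:**
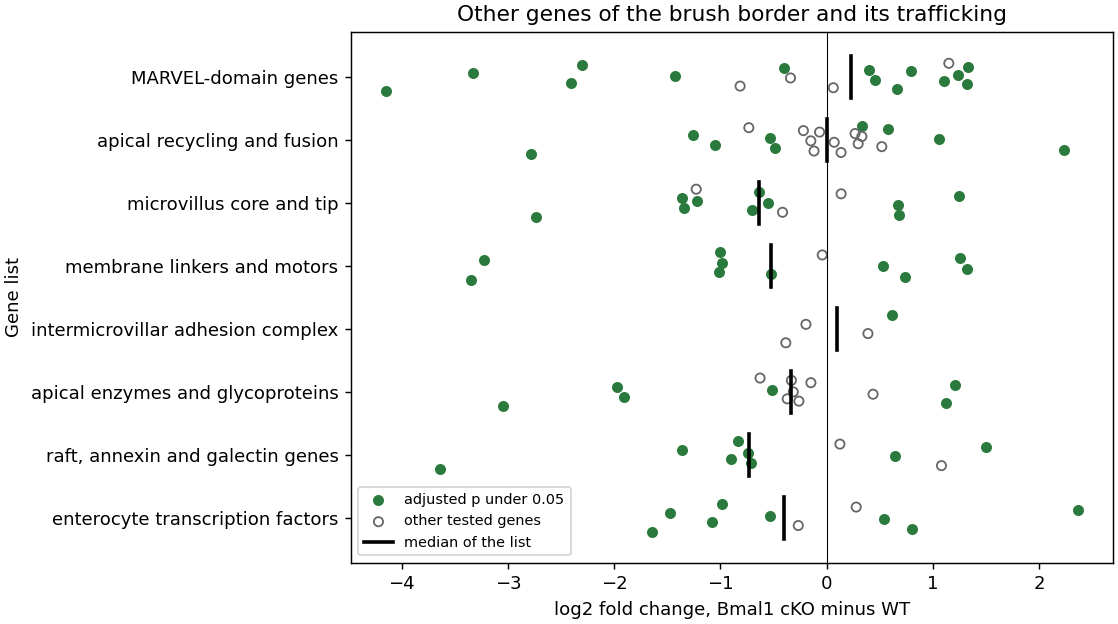
Log2 fold change (*Bmal1* cKO minus WT) of the tested genes in 8 lists around the 10 genes, with filled points for an adjusted p under 0.05 by limma, open points for the other tested genes and a bar for the median. These uncorrected medians run from -0.73 for the raft, annexin and galectin genes to 0.23 for the MARVEL-domain genes, and the corrected ones from -0.47 for the apical enzymes to 0.45 for the adhesion complex.

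Reads of neighbouring genes could touch 3 of the 10. In the annotation the exons of *Vil1* overlap those of *Usp37* on the other strand by 49 bases, those of *Ezr* overlap *Sytl3* on the other strand by 4 bases, and those of *Rab11a* overlap *Gm47308* on the same strand by 107 bases. The other 7 genes share no exon with another gene.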

How the data were processed

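RNA of colonic epithelial cells from 2 WT and 2 *Bmal1* cKO mice was sequenced. The authors used STAR (GRCm38) for alignment and DESeq2 for normalisation of the gene counts. The counter, the annotation release and the strand setting are not given in the sources used here. The value deposited for each gene and library is a signal, the gene's reads over the library's size factor. The deposited comparison of the authors, a log2 fold change, a Wald score and a p-value for each gene, was not used. Values were whole multiples of 1 read within 0.05 of a whole number, and reads were recovered from them. Exon length, GC content of the longest transcript and positions came from GENCODE (GRCm38), matched for 16008 of 16015 genes.

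Values were taken to log2(value + 1), a scale on which low genes change less than in reads, and the 13983 genes averaging 10 or more were tested by limma 3.58.1 (R 4.3.3) (mean-variance trend, both sides, Benjamini-Hochberg adjustment over all of them, threshold 0.05). The correction removed from each library a robust loess curve (span 0.3) on GC content and then on length. The alternatives were other pseudocounts (0.5 and 5), filters, scalings, thresholds, edgeR 4.0.16 and DESeq2 1.42.0 on the recovered reads, a block for the mouse number, and leaving out each mouse. Least-squares smoothing was added after the data were seen. The steps were tested on simulated data. Between mice of one group, read counts varied beyond sampling noise (chi-square per gene 46.2 in WT and 11.1 in *Bmal1* cKO). With 2 mice against 2, no exact permutation test can pass 0.05.

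The 10 genes and the lists were chosen with earlier results of these data known. From each list the text names the 2 highest and 2 lowest genes past the threshold without overlap between the groups, and for *Mal* and *Mal2* the 5 nearest profiles. The genes *Myadml2*, *Cmtm5*, *Synpr*, *Espnl*, *Pdzk1*, *Treh*, *Lct* and *Muc17* of the lists were not analysed here.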

Additional observations from a re-analysis of the deposited data

How the results depend on the processing

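Of 779 values of the genes named by the rule under the alternatives, 73 kept their sign and lost their call, 12 kept their sign and became called, and 16 changed sign. Among these genes signs turned under the GC content and length correction, with and without the block, for *Rab11a* (-0.51), *Myo1a* (0.13), *Espn* (1.28) and *Srf* (0.39). With least-squares smoothing in place of robust smoothing, which moved the median of all genes to 0.26, they turned for *Myo5b* (0.25), *Rab11a* (-0.27), *Vil1* (0.22), *Myo1a* (0.41), *Cdhr2* (0.0143), *Espn* (1.59) and *Srf* (0.65). *Espn* lay between -0.83 and 0.18 when each mouse was left out, the sign turning without WT mouse 2. The cause of these changes was not tested. The 10 genes were chosen on this contrast, so the counts of them below are read only beside the share of all genes called lower in the same fit.

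The correction left 2519 genes lower and 2487 higher, 1 of the 10 genes lower (all genes 18.0%), and of the lists 3 MARVEL, 3 microvillus core, 3 linker, 2 raft and 0 transcription factor genes lower, and 1 linker, 2 adhesion complex, 0 enzyme and 1 raft genes higher. Least-squares smoothing left 1659 genes lower (11.9%) and 0 of the 10, with 3 MARVEL, 3 recycling, 1 core, 2 linker, 2 raft and 0 transcription factor genes lower and 2 linker, 3 adhesion complex and 6 transcription factor genes higher, where 29.9% of all genes were higher. At an adjusted p under 0.01, 2136 genes were lower, with 1 MARVEL, 3 core, 3 linker and 3 raft genes lower and 5 MARVEL, 2 recycling, 2 linker, 0 adhesion complex and 1 enzyme genes higher. Scaling to library totals, which moved the median of all genes to -0.27, called 6 of the 10 genes (all genes 35.0%) and 2 adhesion complex genes lower, and 5 MARVEL and 0 adhesion complex genes higher. DESeq2 called 4 of the 10 lower (all genes 27.2%). A mean of at least 50 left 3 MARVEL genes lower, where 28.6% of 11233 tested genes were lower. *Cmtm3*, *Syngr1* and *Syp*, called lower in the main fit, fell below that mean and were not tested.

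The mouse numbers are only shared numbers, with a correlation of -0.09 between the groups' deviations, each over a single pair difference. With the replicate block 4 of the 10 genes (all genes 27.1%) and 1 adhesion complex gene were lower. The replicate block with the correction gave 2182 genes lower and 2139 higher, 1 of the 10 genes lower (all genes 15.6%), 3 MARVEL, 2 core, 2 linker, 2 raft and 2 transcription factor genes lower, and 2 recycling, 2 linker, 3 adhesion complex, 0 enzyme and 1 raft genes higher.

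Leaving out each mouse in turn, which leaves a lone mouse assumed to vary like the other group, gave between 2205 and 2852 genes lower and between 2654 and 3154 higher. It gave 0 to 5 of the 10 genes lower, with 5 without WT mouse 1 (all genes 17.0%) and 0 without *Bmal1* cKO mouse 1 or mouse 2 (all genes 17.1% and 15.8%). The lists ranged from 1 to 5 (MARVEL), 3 to 6 (core), 3 to 5 (linker), 1 to 5 (raft) and 3 to 6 (transcription factor) genes lower, and from 5 to 6 (MARVEL), 2 to 4 (recycling), 1 to 2 (core), 2 to 3 (linker), 0 to 1 (adhesion complex), 1 to 2 (enzyme) and 1 to 4 (transcription factor) genes higher. *Mal*, with 10 and 11 reads in the WT mice, has the least depth behind its WT level.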
